A study of Macaca mulatta with 10 samples.

Results

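The DDX and DHX genes encode RNA helicases of the DEAD-box and DEAH-box groups, and their signals were compared between livers of brain-dead and of living-donor rhesus macaques (Macaca mulatta). Members were chosen by symbol: every probe set whose platform annotation gives exactly 1 symbol that starts with DDX or DHX and goes on with a digit. This gave 78 probe sets of 39 genes, out of 52865 probe sets on the array and 14133 genes with such a name. A probe set is a group of short oligonucleotides on the array that together read 1 transcript, and a gene can have several. No signal entered that rule, but the family was itself selected on the signals of brain-dead against control animals on these same arrays. Its counts and medians are therefore descriptions and are no evidence about the family as a group. Only single genes are tested, with p-values adjusted over all probe sets that passed a filter on signal.

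RNA of liver was hybridised to 1-colour arrays, 1 array per animal. The 5 brain-dead animals (2 females and 3 males, aged 7 to 18 y, with 1 age not given) had brain death induced by slow inflation of a balloon outside the dura, and received fluids with vasopressin, dopamine or both to hold blood pressure. The sample labels give its duration as 6 h, the design text of the series as 5 h. The 5 control animals (3 females and 2 males, aged 4 to 20 y) were living donors anaesthetised and ventilated for 1 h before the liver was flushed with preservation solution and taken, so ventilation time and drugs cannot be told apart from brain death. No strain is given in the labels.

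RNA helicases of these groups use ATP to open short RNA duplexes or to strip proteins from RNA. DEAD-box proteins usually pry apart duplexes locally, whereas many DEAH-box proteins move along the strand and are switched on by partner proteins with a G-patch domain. In liver, as in other tissues, they serve at successive steps of an RNA's life: ribosomal RNA processing in the nucleolus, splicing, export, translation and decay. A small branch senses viral RNA in the cytoplasm. DDX5, DDX6, DDX17, DDX21 and DDX3Y are among the helicases that had no probe set paired with their symbol and are not analysed here. Of those listed, 6 of 12 of mRNA export, translation and decay had a probe set. The same held for 13 of 16 of ribosome biogenesis and 10 of 13 of splicing.

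Most members were slightly brighter in the brain-dead livers, and few passed the test. The test was limma on log2 signals over 26653 probe sets, each brighter than the array median in 5 or more of the 10 animals. Adjusted p means Benjamini-Hochberg adjusted over all of them, with a threshold of 0.05. Of the members, 63 probe sets of 37 genes were tested, and a gene is given by its brightest tested probe set. The helicases that rose numbered 3: DDX39A of mRNA export, DHX15 of the spliceosome and DHX37 of small ribosomal subunit assembly, each by about 1 on the log2 scale. None fell, and 34 did not pass. These 3 risers are 8.11% of the member genes, beside 2.9% of all 9835 genes tested that rose and 3.87% that fell. Counted by probe set, 4 of 63 rose, beside 2.72% of all probe sets. The median log2 change was 0.37 over the 37 member genes, against -0.0069 over all genes. The change lay above 0 in 34 of the 37, beside 49.5% of all genes. An unadjusted p under 0.05 was reached by 12 members (32.4%, beside 25.1% of all genes), each with a change above 0. Of the 37 genes, 36 had a probe set above the array median on all 10 arrays, so the filter did not choose them through 1 group.

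**Figure D1:**
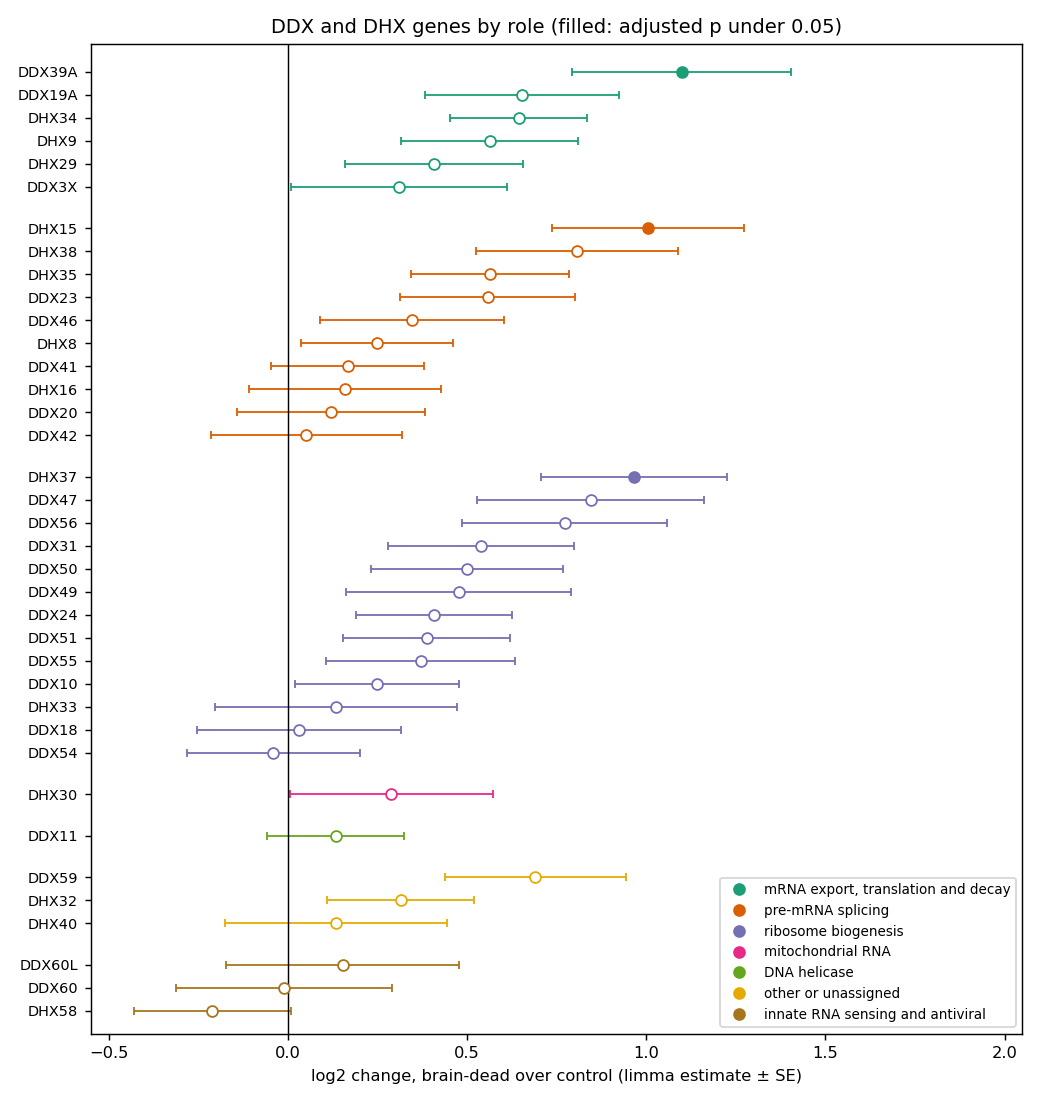
Log2 change of brain-dead over control livers for the 37 member genes tested, with limma's standard error as bars, ordered within roles. Filled points have a Benjamini-Hochberg adjusted p under 0.05 over all probe sets tested. The estimates run from -0.21 for DHX58 to 1.10 for DDX39A, and only DDX39A, DHX15 and DHX37 are filled.

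The calls were not stable to the removal of single animals. Of 23 alternative settings 10 left no member past the threshold, among them leaving out control animal 1, 2 or 3 or brain-dead animal 1, 4 or 5, and leaving out both animals numbered 1, a pair singled out by earlier results of these data. All 3 calls were kept in 6 alternatives. The median change of the members moved less, from 0.30 to 0.44 over its alternatives. In liver tissue, fewer cells of a type and less RNA per cell cannot be told apart.

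Of the 6 tested members of mRNA export, translation and decay, 1 rose. DDX39A is a close relative of the export helicase DDX39B and loads export factors onto mRNA. Its signal was 11114, 7540, 9275, 17286 and 10906 in brain-dead animals 1 to 5, against 3119, 3825, 4764, 6375 and 8968 in control animals 1 to 5. Brain-dead animal 4 was the highest and control animal 1 the lowest, and the groups overlapped only in that control animal 5 lay above brain-dead animal 2. DDX39A rose by 1.10 ± 0.30 on the log2 scale (SE, n = 5 animals per group, limma, adjusted p = 0.0498), that is 2.14-fold. Its second probe set rose by 1.36 (limma, adjusted p = 0.0450), so the 2 probe sets of DDX39A gave the same direction and the same call. The call of DDX39A ended without control animals 1, 2 and 3 (limma, adjusted p = 0.103, 0.121 and 0.103) and without brain-dead animals 1, 3, 4 and 5 (0.0787, 0.0758, 0.114 and 0.103). Leaving out the pair of animals numbered 1 ended it as well (limma, adjusted p = 0.142). Over all alternatives its adjusted p ran from 0.0205 to 0.142.

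DHX34, which acts in nonsense-mediated decay, had groups that did not overlap although it did not pass the test. Its signal was 1850, 1380, 1547, 1678 and 1198 in brain-dead animals 1 to 5, against 901, 986, 906, 1146 and 922 in control animals 1 to 5. The lowest brain-dead animal, number 5, lay just above the highest control animal, number 4. The log2 change of DHX34 was 0.64 ± 0.19 (SE, n = 5 per group, limma, adjusted p = 0.0631), and it passed in 3 of 23 alternatives, without control animal 4 among them (0.0470). In all, the groups did not overlap for 3 member genes, DHX15, DHX37 and DHX34, each higher in brain death. They are 8.11% of the members, beside 7.8% of all genes whose groups did not overlap in either direction, 3.65% of all genes being higher. A further probe set, 1 of 3 tested for DHX9, was also apart, at 2520 to 3530 in brain-dead animals and 1819 to 2173 in control animals, and its change of 0.56 missed the threshold (limma, adjusted p = 0.0937).

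**Figure D2:**
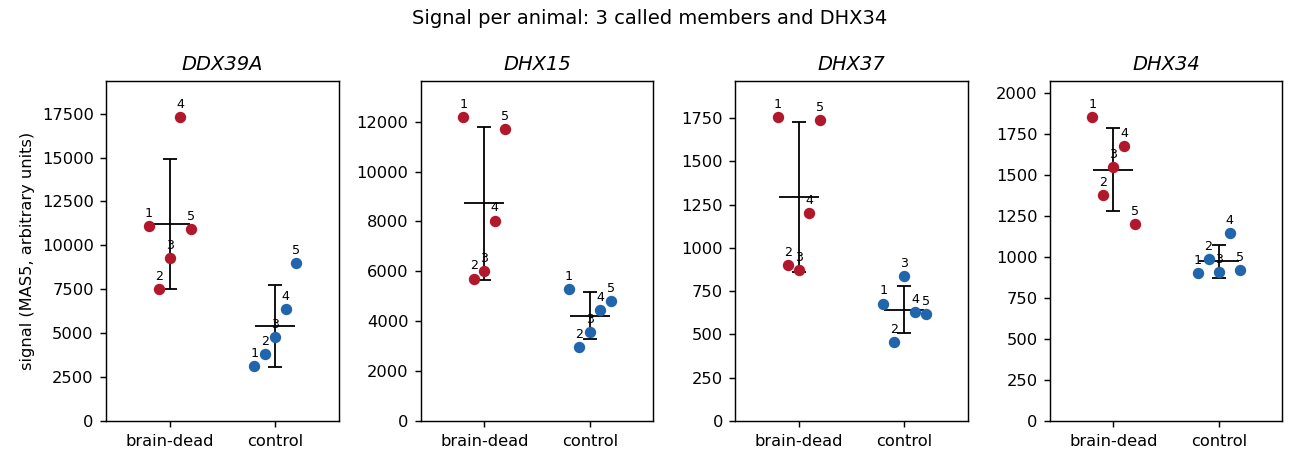
MAS5 signal (linear, arbitrary units) of the brightest probe set of DDX39A, DHX15, DHX37 and DHX34 in each animal, brain-dead left and control right, with animal numbers beside the points; the black line and bars are mean ± SD of 5 animals. For DHX15 and DHX37 brain-dead animals 1 and 5 are the highest, and for DDX39A control animal 5 lies above brain-dead animal 2.

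The other helicases of this role had changes above 0 that did not pass. DDX19A, which remodels mRNA as it leaves the nuclear pore, had a change of 0.65 ± 0.27, and its other probe set one of 0.72 (limma, adjusted p = 0.163 and 0.0716). DHX9, or RNA helicase A, had changes of 0.56, 0.69 and 0.56 on its 3 tested probe sets, so these differed little from each other. DHX29, which helps initiating ribosomes through structured leaders, had a change of 0.41 ± 0.25 (SE, limma, adjusted p = 0.344). DDX3X, an X-linked helicase of translation initiation, had a signal of 35378, 16302, 20318, 16402 and 33059 in brain-dead animals 1 to 5, against 28888, 18096, 10572, 18169 and 21619 in control animals 1 to 5. The groups of DDX3X overlapped widely, with animal 1 the highest in both. Its change was 0.31 ± 0.30 (SE, limma, adjusted p = 0.574). Of the other probe sets of DDX3X 1 gave 0.31, and a dimmer one gave 0.77 ± 0.27 (SE, limma, adjusted p = 0.111). On that one the signal was 5609, 4730, 6798, 3530 and 7816 in brain-dead animals 1 to 5, against 4268, 3177, 2060, 4307 and 2876 in control animals 1 to 5, and only brain-dead animal 4 lay among the control values.

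All 10 tested members with a role in splicing were brighter on average in brain death (median change 0.30), and 1 rose. DHX15 takes spent spliceosomes apart after the intron is released. Its signal was 12172, 5712, 6000, 8038 and 11721 in brain-dead animals 1 to 5, against 5302, 2979, 3575, 4448 and 4800 in control animals 1 to 5. Brain-dead animals 1 and 5 were well above the others, while numbers 2 and 3 lay only a little above control animal 1. DHX15 rose by 1.01 ± 0.27 on the log2 scale (SE, n = 5 per group, limma, adjusted p = 0.0436), that is 2.01-fold. The call ended without control animals 1, 2, 3 and 5 (limma, adjusted p = 0.0548, 0.110, 0.102 and 0.0600) and without brain-dead animals 1, 3, 4 and 5 (0.0831, 0.0509, 0.0827 and 0.109). Without the pair numbered 1 it ended too (limma, adjusted p = 0.0870). Over all alternatives its adjusted p ran from 0.00948 to 0.110. The suffix of the probe set behind it marks oligonucleotides shared by several transcripts. A dimmer probe set of DHX15 did not move with it: its signal was 537, 266, 577, 572 and 1099 in brain-dead animals 1 to 5, against 914, 651, 482, 492 and 306 in control animals 1 to 5. The groups overlapped almost fully there, and the change was 0.053 (limma, adjusted p = 0.950).

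The helicases that drive single steps of the splicing cycle did not pass. DHX38, the counterpart of yeast Prp16 that acts before the second step, had a signal of 4933, 3504, 2779, 4607 and 7743 in brain-dead animals 1 to 5, against 3289, 2286, 2225, 1933 and 3227 in control animals 1 to 5. Only brain-dead animal 3 fell among the control values. Its change was 0.81 ± 0.28 (SE, limma, adjusted p = 0.104), with 0.67 on its other probe set. DDX23, a component of the U5 particle, had changes of 0.56 and 0.59 on its 2 probe sets. DDX46, the counterpart of yeast Prp5 in early assembly, had 0.35 and 0.12. DHX16, which activates the assembled spliceosome, had a change of 0.16 ± 0.27, and DHX8, which releases the spliced mRNA, one of 0.25 ± 0.21, with 0.61 and 0.70 on its dimmer probe sets. For DHX35 the change was 0.56 ± 0.22, for DDX41 0.17 ± 0.21 and for DDX20, of the SMN complex that assembles small nuclear particles, 0.12 ± 0.26. DDX42, a partner of the U2 particle, had a change of 0.052 ± 0.27 on its bright probe set and 1.07 on a dim one that was above the array median in 3 of 5 control animals. Neither probe set of DDX42 passed (limma, adjusted p = 0.932 and 0.163), and the sign of the first turned when single animals were left out (-0.075 to 0.20).

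Of the 13 tested helicases of ribosome biogenesis, which act mainly in the nucleolus, 12 had a change above 0 and 1 rose (median change 0.41). DHX37 frees the U3 small nucleolar RNA during small subunit assembly. Its signal was 1754, 900, 870, 1200 and 1737 in brain-dead animals 1 to 5, against 679, 455, 838, 631 and 617 in control animals 1 to 5. As for DHX15, brain-dead animals 1 and 5 were the highest, and the margin between brain-dead animal 3 and control animal 3 was small. DHX37 rose by 0.97 ± 0.26 on the log2 scale (SE, n = 5 per group, limma, adjusted p = 0.0444), that is 1.95-fold, and had no second probe set to compare. Its call ended without any 1 of the control animals (limma, adjusted p = 0.0742, 0.112, 0.0578, 0.0542 and 0.0749 for numbers 1 to 5). It ended too without brain-dead animals 1, 4 and 5 (0.0847, 0.0830 and 0.111, limma) and without both animals numbered 1 (0.123). Over all alternatives it ran from 0.0338 to 0.123.

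DDX47, which takes part in early cleavage of ribosomal RNA, had the next largest change of this role. Its signal was 6383, 5704, 4465, 5421 and 5512 in brain-dead animals 1 to 5, against 1709, 1715, 4255, 4694 and 4434 in control animals 1 to 5. Control animals 1 and 2 lay far below the other 3 control animals, of which only number 4 lay above the lowest brain-dead value. The change was 0.85 ± 0.32 (SE, limma, adjusted p = 0.126). DDX56, needed for assembly of the large subunit, had a change of 0.77 ± 0.29 (SE, limma, adjusted p = 0.123). DDX50, a nucleolar relative of DDX21, had a change of 0.50 ± 0.27 and DDX24 one of 0.41 ± 0.22. For DDX31, DDX49, DDX51, DDX55, DDX10 and DHX33 the changes were 0.54, 0.48, 0.39, 0.37, 0.25 and 0.13, none past the threshold. The change of DDX18, of large subunit assembly, was 0.031 ± 0.28 and that of DDX54 was -0.040 ± 0.24, and both turned sign when single animals were left out (-0.11 to 0.17 for DDX18, -0.16 to 0.11 for DDX54).

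The antiviral helicases with a DDX or DHX name had no change past the threshold. DHX58, known as LGP2, modulates the RNA sensors of its family and is induced by interferon. Its signal was 9238, 5010, 6613, 6293 and 7631 in brain-dead animals 1 to 5, against 9587, 6425, 6541, 7992 and 9455 in control animals 1 to 5. The groups overlapped, and the change of -0.21 ± 0.22 was the lowest of all 37 members (SE, limma, adjusted p = 0.608). DDX60, an interferon-induced helicase, had a signal of 7016, 3331, 3769, 3826 and 6772 in brain-dead animals 1 to 5, against 8185, 5261, 4599, 3745 and 3193 in control animals 1 to 5. Its change was -0.011 ± 0.30, with a sign that turned when single animals were left out (-0.16 to 0.19), and its relative DDX60L had one of 0.15 ± 0.33. The 2 founding sensors of this branch fall outside the symbol rule and were looked up after the members' values were seen. RIGI, formerly DDX58, had a change of 0.62 ± 0.35 and IFIH1 one of 0.34 ± 0.33, neither past the threshold (limma, adjusted p = 0.302 and 0.572).

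Members with other roles did not pass either. DHX30, which is needed for assembly of the mitochondrial ribosome, had a change of 0.29 ± 0.28 and DDX11, a DNA helicase of sister chromatid cohesion, one of 0.13 ± 0.19. DDX59 had a change of 0.69 ± 0.25 (SE, limma, adjusted p = 0.118), and it passed when control animal 4 was left out (0.0488). DHX32 had a change of 0.32 ± 0.20 and DHX40 one of 0.13 ± 0.31, whose lowest value with an animal left out was -0.058. For both DHX30 and DHX32, control animal 1 lay far above the other control animals, at signals of 3626 and 2477.

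The probe sets of a gene did not always read alike. Of 19 genes with 2 or 3 tested probe sets, 16 had changes of 1 sign and 3 of mixed sign, DDX49, DDX54 and DDX60. DDX54 had -0.040 on its brightest probe set and 0.32 and 0.093 on the others. DDX60 had -0.011 on its brightest probe set and 0.048 on the other. DDX49 differed most, with 0.48 on its bright probe set and -0.75 on its dim one, neither past the threshold (limma, adjusted p = 0.384 and 0.457). On the dim probe set brain-dead animal 2 stood at 30.0 beside 222 to 322 in the other brain-dead animals and 198 to 360 in control animals. DDX42 and DHX15 came next, as given above, and DDX18 had 0.031 on its brightest probe set and 0.47 and 0.56 on the others. With the median over a gene's probe sets in place of the brightest, the median change of the members was 0.37, as before.

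**Figure D3:**
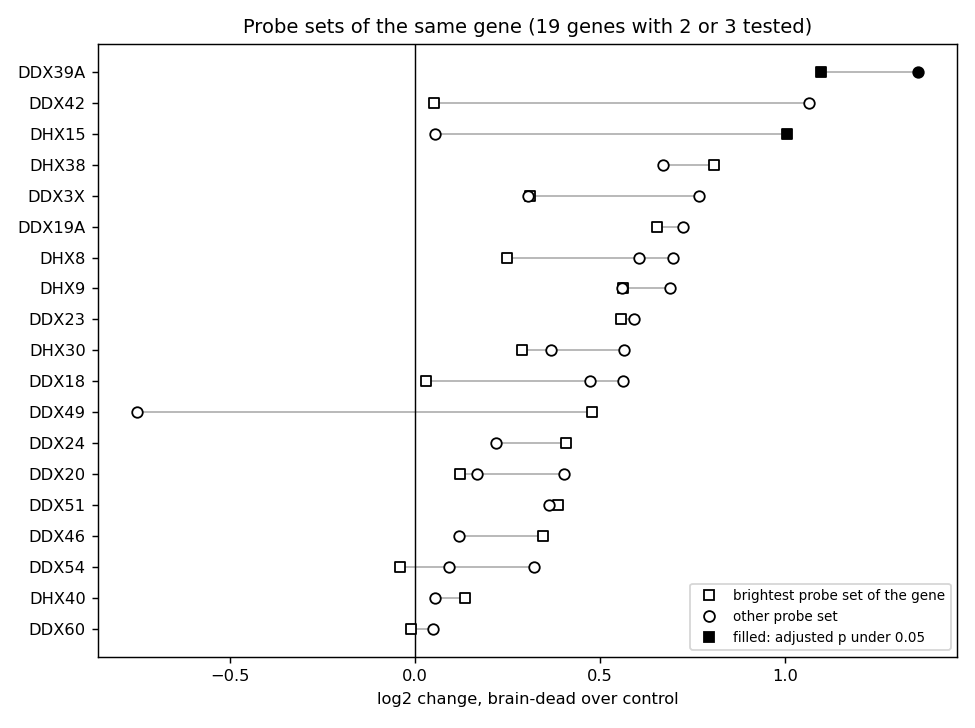
Log2 change of brain-dead over control livers for each tested probe set of the 19 member genes with more than 1; squares are the brightest probe set of a gene, circles the others, and filled symbols passed the test. The 2 probe sets of DDX39A lie close together at 1.10 and 1.36, whereas those of DHX15 lie at 1.01 and 0.053 and those of DDX49 on opposite sides of 0.

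The remaining 15 member probe sets lay below the filter and were not tested, among them every probe set of DDX53 and DHX57, so these 2 genes had no test. DDX53, a gene of testis and tumours, had signals of 23.4 to 93.2 in brain-dead and 3.87 to 52.3 in control animals, under the array medians of 175 to 227. On 2 dim probe sets of DDX31 the groups were apart in opposite directions. One read 15.2 to 34.6 in brain-dead and 5.63 to 11.8 in control animals, the other 67.8 to 102 in brain-dead and 113 to 216 in control animals. Such signals near background carry little information on direction.

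The family's level differed from animal to animal within both groups. For each animal the log2 signal of every member gene was set against its mean over the control animals, and the median was taken over the 37 genes. This level was 0.61, 0.076, 0.15, 0.33 and 0.64 in brain-dead animals 1 to 5, against 0.29, -0.15, -0.19, -0.027 and 0.21 in control animals 1 to 5. Brain-dead animals 1 and 5 were the highest, and brain-dead animals 2 and 3 lay below control animals 1 and 5, so the groups overlapped. It averaged 0.36 ± 0.26 over the brain-dead animals, against 0.028 ± 0.21 over the control animals (SD, n = 5 each). Over all 9835 genes the same median stayed between -0.049 and 0.059 in every animal. Brain-dead animals 1 and 5 held the highest signal of their group for 14 and 16 of the 37 genes, beside 25.5% and 22.5% of all genes. Brain-dead animal 2 held the lowest for 19 of them, beside 21% of all genes. Among control animals number 1 held the highest for 19, beside 28% of all genes, and number 2 for none.

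**Figure D4:**
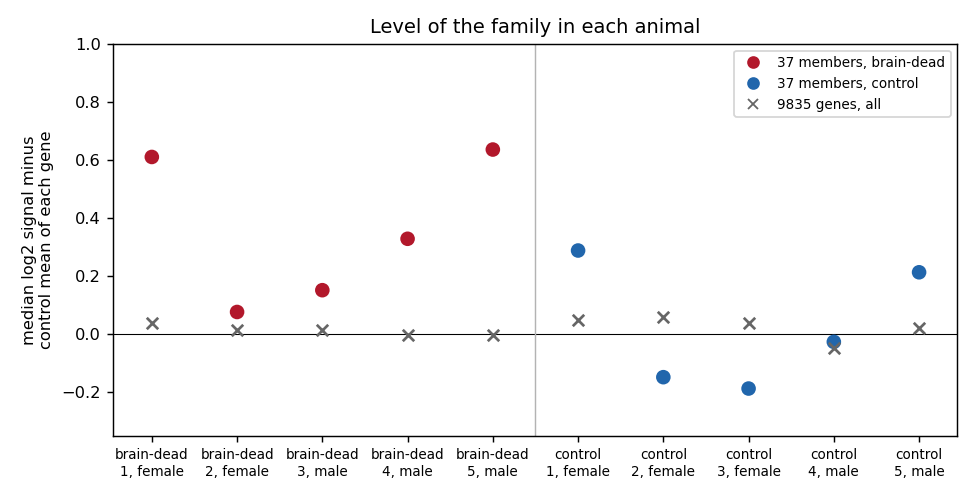
Median over the 37 member genes of the log2 signal minus each gene's control mean, for each animal (circles, brain-dead left, control right), and the same over all 9835 genes (crosses). The members' level spans 0.076 to 0.64 in brain-dead and -0.19 to 0.29 in control animals, while the crosses stay between -0.049 and 0.059.

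Sex gave a contrast that had no part in the choice of members. With group in the model, no member differed between males and females at an adjusted p under 0.05, and neither did any of the 9835 genes (limma, lowest adjusted p of a member 0.354). An unadjusted p under 0.05 was reached by 2 members (5.41%, beside 11.9% of all genes). They were DDX39A, with a male minus female difference of 0.69 ± 0.25, and DDX19A, with 0.58 ± 0.23 (SE, log2 scale, 5 animals of each sex). With sex in the model the rise of DDX39A was 0.96 and passed (limma, adjusted p = 0.0456), whereas DHX15 and DHX37 did not (0.0596 and 0.0565). X-linked DDX3X had a male minus female difference of 0.027 ± 0.31. The effect of brain death did not differ between the sexes for any member at an adjusted p under 0.05 (limma, lowest adjusted p of a member 0.9998). Nor did it for any of the 9835 genes. For this difference 2 members had an unadjusted p under 0.05 (5.41%, beside 3.51% of all genes). For DDX59 the effect was 0.074 in males and 1.23 in females, and for DDX47 it was 0.16 in males and 1.38 in females. With 2 or 3 animals of a sex in each group, differences of this size were not resolved.

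Genes that work beside the helicases were taken from lists chosen with earlier results of these data known. Their counts stand beside 2.9% of all 9835 genes tested that rose, 3.87% that fell and 49.5% with a change above 0. Of 43 tested ribosome biogenesis factors without a DDX or DHX name, 5 rose, none fell and 42 had a change above 0 (median 0.65). RRP12, of subunit export, rose by 1.85 ± 0.42, EBNA1BP2 of the large subunit by 1.30 ± 0.27 and TSR1 of the small subunit by 1.15 ± 0.25 (SE, limma, adjusted p = 0.0240, 0.0173 and 0.0221). The count of 5 was 1 without control animal 2 or 3 or brain-dead animal 4 or both animals numbered 1, and 9 without brain-dead animal 2. It was 2 without brain-dead animal 5, and 3 without control animal 1 or brain-dead animal 1, with median centring or without the filter. With the replicate number as a block, which the design does not give as a pairing, it was 18. Of 26 spliceosome proteins none rose and SF3B3, of the U2 particle, fell, with a log2 change of -1.48 ± 0.33 (limma, adjusted p = 0.0220), a call lost without control animal 2 or brain-dead animal 5. With the replicate block 4 spliceosome proteins rose, and with the filter at the 75th percentile 1 did. The spliceosome list had a median change of 0.22. Of 11 genes of mRNA export 1 rose. It was GLE1, which activates the DDX19 helicases at the nuclear pore, with a log2 change of 1.43 ± 0.32 (limma, adjusted p = 0.0233). This count of 1 was 0 without control animal 2 or 3, or when the model held sex and age. That model also left out brain-dead animal 3. Among 12 mRNA decay partners of DDX6 none passed (median -0.012).

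Of 10 G-patch proteins that serve DHX helicases 1 rose, GPATCH2, by 1.19 ± 0.21 (limma, adjusted p = 0.00862). Of 10 genes listed as partners of the RIG-I-like receptors 1 rose, the interferon regulatory factor IRF7, by 1.66 ± 0.21 (limma, adjusted p = 0.00244). These 10 included IFIH1, itself such a receptor, which was also counted among the 13 genes of the next list. Of 13 genes listed as other RNA helicases, 7 had a change above 0 and 6 below (median 0.072). This list held FANCM, which acts on DNA, at -0.066, and did not hold RIGI, given above at 0.62. In it ZNFX1, an antiviral helicase, rose by 1.08 ± 0.28 (limma, adjusted p = 0.0375). The ZNFX1 call, the only one of that list, was lost without control animal 2, 3 or 5, without brain-dead animal 1, 4 or 5 and without both animals numbered 1. It was lost too without the filter on low signal and with sex, or sex and age, in the model. The model with sex and age also left out brain-dead animal 3. Whether the DDX and DHX genes differ from these lists was not tested.

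**Figure D5:**
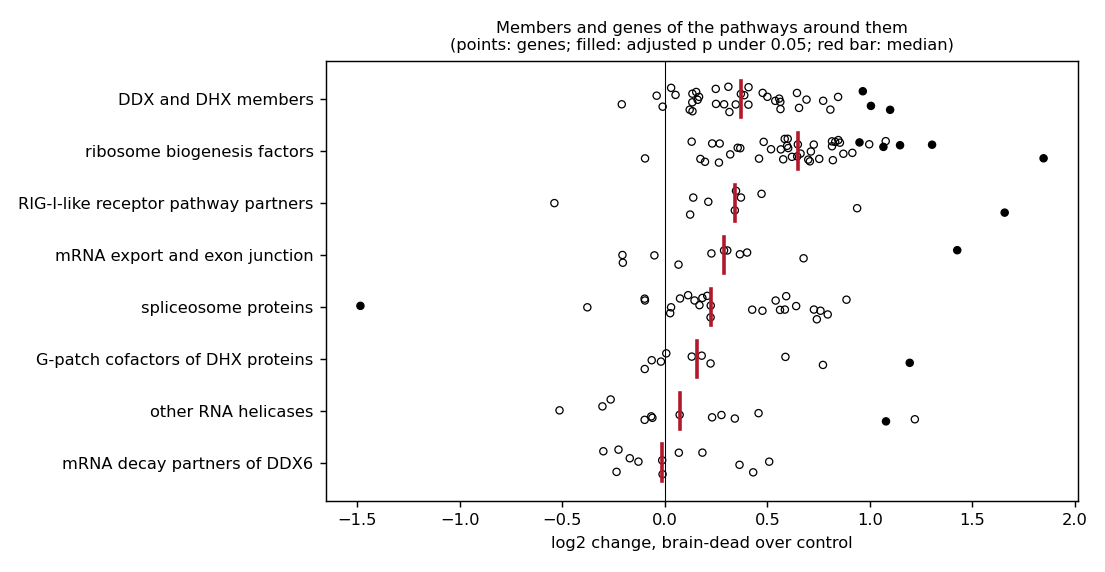
Log2 change of brain-dead over control livers for the 37 DDX and DHX genes and for the tested genes of 7 lists around them; points are genes, spread vertically only for legibility, filled points passed the test, and red bars are medians. The median is 0.37 for the members, 0.65 for ribosome biogenesis factors and 0.072 for other RNA helicases.

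With 5 arrays a group, precision is limited by their number. Of 17 hepatocyte markers 13 had a probe set and were tested, and all 13 had a change below 0, none past the threshold. Their summed signals were 877780 to 1013370 in brain-dead and 1012550 to 1285430 in control animals. AHSG and APOC3 alone had groups that did not overlap, both lower in brain death, beside 408 of all 9835 genes. The summed signals of the 6 tested neutrophil markers were 8477 to 56938 in brain-dead and 1019 to 6251 in control animals. Of these markers 2 rose, S100A8 and S100A9. The other 4 did not pass, MMP9 at 1.69 and CSF3R at 0.76 on the log2 scale, ELANE at -0.38 and FPR1 at -0.26, and the median of the 6 was 1.23. None of the 9 tested markers of macrophages, the 6 of lymphocytes and the 8 of endothelium passed, with medians of -0.33, 0.071 and -0.50. The part of neutrophils in the members' changes was not tested.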

How the data were processed

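The authors deposited linear signal intensities, 1 value for each probe set of each array, made with MAS5 per the submitters' processing notes, which list no version of it. Every array had a 2% trimmed mean of 1000.1, so the deposited signals had been scaled to a common level. Values were log2-transformed as they stood, with no pseudocount. The 99 control probe sets were left out, and names came from the platform annotation of 2016, in which 24969 probe sets had 1 gene symbol, 361 several and 27535 none. The gene IDs of 75 of 78 member probe sets were found among the reference genes, all under the same symbol. The fit was limma 3.58.1 in R 4.3.3 (lmFit, eBayes with trend) with group alone, or with sex or its interaction, and errors of changes are its standard errors. The input was handled in data.table (version 1.17.8), and matplotlib 3.10.9 drew the figures.

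Members, roles and lists were chosen with earlier results of these data known. Named with values were members past the threshold or with groups apart, the 5 largest and 5 smallest changes, the antiviral members and DDX3X, and up to 3 further genes of each role by mean signal, with the others given by their change. Up to 3 called genes of each partner list were named. Alternatives were other normalizations, pseudocounts, filters, covariates, eBayes settings, array weights and left-out arrays, and those of the partner lists and the interaction were added after seeing the data. Replicate numbers named animals and paired none. Nothing in the labels says more of the animals' independence than that each array is another animal. No sequence of the genes or their proteins was used here.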

Additional observations from a re-analysis of the deposited data

Results flagged for a closer look

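In 2 members a control animal lay far from the other 4. For DHX32 control animal 1 stood at a signal of 2477, beside 1583 to 1732 in the other control animals, a gap of 0.799 of the group's range on the log2 scale. For DHX30 control animal 1 stood at 3626, beside 2064 to 2356, a gap of 0.765 of the range. Dixon's 95% critical value for 5 samples is 0.71, and 54 groups of 27 genes were examined. Chance flags about 1 in 20 groups, which is near the number found.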

How the results depend on the processing

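The median change of the members kept its direction in all 24 alternatives (0.30 to 0.44), and it moved from its value of 0.37 by less than the spread between animals. No member fell in 23 alternatives, and none differed by sex or by the interaction in the 21 run for each. The number of members that rose depended on the setting. From 3 genes and 4 probe sets it went to 1 gene and 1 probe set with median centring, to 0 and 0 without the filter, to 1 and 2 with sex in the model and to 0 and 1 with sex and age. It was 0 and 0 with eBayes without trend, 0 and 0 without both animals numbered 1, and 5 and 7 with the replicate block, where DDX56 and DHX38 passed too. The model with sex and age also left out brain-dead animal 3, whose age is not given. Without that animal alone, and with neither covariate, 1 gene passed, DHX37. Leaving out single animals gave 0 to 4 genes and 0 to 6 probe sets. The cause was not tested beyond what each setting leaves out. Over all genes 285 rose, against 606 with the block, 188 without the filter, 171 with sex and age and 133 without both animals numbered 1. The numbers were not taken as pairs, since the deviations of same-numbered animals correlated by 0.38, 0.064, 0.13, 0.089 and 0.13 for numbers 1 to 5, and brain-dead animals 1 and 5 alone correlated best with their own number.

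Of 27 named members 21 kept the sign of their change in every alternative run. DDX60 turned to 0.058 with median centring, 0.072 with sex, 0.064 with sex and age and 0.042 without both animals numbered 1, and DDX54 to 0.028 with median centring. DDX60L turned to -0.013 with sex and age and -0.031 without both animals numbered 1. With single animals left out the changes were -0.075 to 0.20 for DDX42, -0.11 to 0.17 for DDX18, -0.16 to 0.19 for DDX60, -0.16 to 0.11 for DDX54 and -0.058 to 0.38 for DHX40. These 6 were never past the threshold. Each was read on a probe set above the array median in all 5 animals of both groups. In the main fit, with group alone and all 10 animals, their changes ran from -0.040 for DDX54 to 0.15 for DDX60L. Each change was smaller than its standard error. Why the signs turned was not tested.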
